A study of Mus musculus with 12 samples.

Results

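The genes described here encode structural and associated proteins of the sperm tail: the outer dense fibre genes Odf1, Odf2, Odf3 and Odf4, the fibrous sheath genes Akap3, Akap4, Fscb and Fsip2, the mitochondrial capsule gene Smcp and the antizyme gene Oaz3. They were taken by symbol from a table of 20788 mouse genes, in which all 10 were present. RNA was sequenced from testes of F1 mice of the strain labelled IRC, in 12 libraries that the labels place in 4 groups of 3. The testes had been transfected with a virus meant to raise the long non-coding RNA lncRNA8276 (8276OV) or to lower it (8276KD), and the other groups are labelled 5NC and 3NC. The labels do not say what 5NC and 3NC are; they are taken here as the controls of 8276OV and of 8276KD, in the order the design text lists them. Genotype, age, the kind of virus and the cells it reached are not given in the labels, and no value of lncRNA8276 itself was used. Nothing in the labels says that the 3 libraries of a group are separate animals. A p-value here therefore measures spread among libraries, and that spread could be technical.

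The mammalian sperm tail has a central axoneme wrapped in accessory structures. Outer dense fibres run along the axonemal doublets through the midpiece and much of the principal piece and stiffen the tail. The mitochondrial sheath winds around the fibres in the midpiece, while the fibrous sheath encloses them in the principal piece and serves as a scaffold for protein kinase A and for enzymes of glycolysis. The transcripts are made in spermatids, and several are stored before translation while the tail is assembled. Smcp is a protein of the mitochondrial sheath, and Oaz3 is the testis member of the antizymes, which restrain polyamine synthesis; mice without it have sperm whose heads and tails come apart. Neither is a fibre or sheath protein proper, so the set is wider than its name.

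Each library held 13485479 to 15771655 estimated counts, and the 10 genes together took 1.10% to 1.39% of them. The 3 lowest totals were those of 8276OV library 2 and of 5NC libraries 2 and 3, and the other 9 libraries held at least 15252025. Library 2 of 3NC stood apart: its median correlation with the other libraries over all genes was 0.954, against 0.980 to 0.988 for the rest, and all 10 leukocyte markers were at their highest there, at a sum of 445.3 CPM (counts scaled to a common library total) against at most 96.1 elsewhere. Ptprc, which marks leukocytes, stood at 95.5 CPM in that library. Other markers differed between libraries too. The epididymis markers summed to 430.6 CPM in 8276KD library 1, the highest of all, against 95.9 and 70.6 in libraries 2 and 3 of that group. In 5NC they summed to 114.8, 370.2 and 219.6 CPM. The Leydig cell markers were at their lowest in 8276KD library 1, at 962.9 CPM against 1758 and 2231 in libraries 2 and 3. The deposited length-normalised values imply an effective gene length that differs between libraries by the same number of bases for short and long genes, from -11.6 in 3NC library 2 to 15.7 in 8276OV library 1, relative to 3NC library 1. How that length was set is not given in the sources used here. Levels below are in CPM after normalisation by the trimmed mean of M values (TMM), for comparison of 1 gene between libraries, and in FPKM, which also divides by gene length, for comparison between genes.

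All 10 genes were expressed in every library, and their levels per length spanned from 2317 ± 256.7 FPKM for Smcp to 19.6 ± 2.73 for Fsip2 (mean ± SD, n = 12). Smcp was 8th of 20788 genes by mean FPKM, Oaz3 was 11th with 1882 ± 273.0 and Odf2 was 14th with 1705 ± 84.7. Odf1 (1187 ± 253.4), Akap4 (786.8 ± 49.2), Akap3 (328.1 ± 37.8) and Odf4 (209.3 ± 12.7) came next. Fscb (113.1 ± 13.1) and Odf3 (103.3 ± 22.3) closed the order above Fsip2. Neighbours in this order kept it in all 12 libraries, except that Oaz3 was at or under Odf2 in 3 libraries and Fscb at or under Odf3 in 7. The order also depends on the length that is used: per kilobase of all annotated exons 6 genes kept their rank, while Odf1 moved to rank 2, Akap4 to rank 3, Odf2 to rank 4 and Oaz3 to rank 5.

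No gene of the set passed the test in any comparison, but the 8276OV mean was above the 5NC mean for 8 of the 10. Of all tested genes, 48% had a log2 fold change above 0 there. For 5 genes every 8276OV library was above every 5NC library, as for 11.7% of all tested genes. In bulk testis, fewer cells of a type and less RNA per cell cannot be told apart. Group means were lowest in 5NC for 8 of the 10 genes, and highest in 8276OV for 6 (Odf1, Odf2, Odf3, Akap3, Smcp and Oaz3) and in 3NC for 3 (Akap4, Fscb and Fsip2). Odf4 went the other way, with its lowest mean in 3NC and its highest in 5NC. In 8276KD no gene had its lowest or highest mean.

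**Figure D1:**
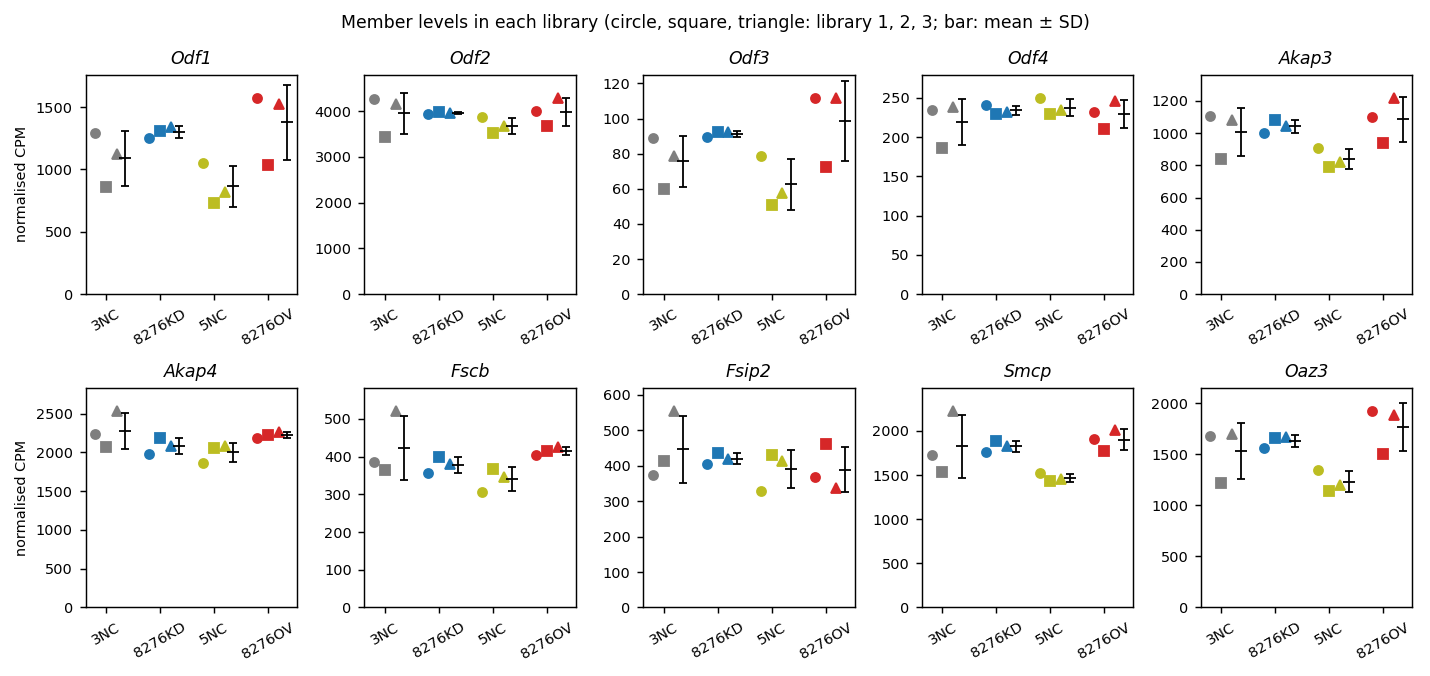
Level of each of the 10 genes in each library, in normalised CPM (y axis, from 0) by group (x axis); circles, squares and triangles are libraries 1, 2 and 3, and the bars are the group mean ± SD (n = 3). The 8276KD libraries lie close together, while 5NC library 2 is the lowest of 12 for 5 genes and 3NC library 3 the highest for 4.

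Odf1 encodes a main protein of the outer dense fibres, related to the small heat shock proteins. It lies at chr15:38219203-38226735 on the plus strand (GRCm38, GENCODE M21) and has 2 exons. Its level was 1293, 855.4 and 1124 CPM in libraries 1, 2 and 3 of 3NC, and 1049, 731.8 and 817.0 in those of 5NC. The construct groups gave 1249, 1306 and 1341 CPM in 8276KD, and 1572, 1032 and 1527 in 8276OV. Libraries 1 and 3 of 8276OV were above all others, while 8276OV library 2 was inside the range of 5NC, so the groups overlapped. The mean was 1377 ± 299.5 CPM in 8276OV and 865.9 ± 164.1 in 5NC (SD, n = 3), a log2 fold change of 0.67 ± 0.19 (SE; adjusted p = 0.122, edgeR quasi-likelihood test with Benjamini-Hochberg adjustment). Against 3NC, 8276KD differed by 0.25 ± 0.18 (adjusted p = 0.630, same test).

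Odf3, a tail protein also called Shippo1, was the least abundant of the fibre genes and had nearly the same profile. It lies at chr7:140847805-140851018 on the plus strand and overlaps Gm45785 on the opposite strand, whose reads cannot be told apart because the strand setting is not given. The level was 88.8, 60.1 and 78.6 CPM in 3NC and 78.6, 51.0 and 57.8 in 5NC. With the constructs it was 89.3, 92.4 and 92.1 CPM in 8276KD and 111.6, 72.5 and 111.7 in 8276OV. Again 8276OV libraries 1 and 3 were the highest, and library 2 was under 5NC library 1. The difference of 8276OV from 5NC was 0.66 ± 0.20 on the log2 scale (adjusted p = 0.140, edgeR quasi-likelihood test). The 8276KD libraries were all above 3NC, by 0.27 ± 0.20, with an adjusted p of 0.629 in the same edgeR test.

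Odf2 encodes a fibre protein that also occurs, as other isoforms, at centrosomes and basal bodies, and was the member with the most reads. It lies at chr2:29889221-29931746 on the plus strand, with 25 annotated transcripts, and overlaps Gm23865 on the opposite strand. Levels were 4272, 3426 and 4149 CPM in 3NC, and 3864, 3514 and 3664 in 5NC. They were 3931, 3981 and 3948 CPM in 8276KD, and 4008, 3665 and 4285 in 8276OV. Each construct group overlapped its control, and the difference of 8276OV from 5NC was 0.12 ± 0.10 (adjusted p = 0.644, edgeR quasi-likelihood test). Its 3 libraries of 8276KD had a coefficient of variation of 0.646%, against 11.6% in 3NC.

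Odf4, a tail protein found in spermatids and sperm, lies at chr11:68921835-68927081 on the minus strand. It held 235.0, 185.8 and 237.9 CPM in 3NC, and 249.8, 229.5 and 234.1 in 5NC. It held 240.6, 229.9 and 231.8 CPM in 8276KD, and 231.9, 209.9 and 245.9 in 8276OV. Leaving aside the low value of 3NC library 2, the libraries lay within a narrow band in which no group stood out. The log2 difference was -0.05 ± 0.10 for 8276OV against 5NC (adjusted p = 0.865) and 0.09 ± 0.10 for 8276KD against 3NC (0.734, both edgeR quasi-likelihood tests).

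The fibrous sheath genes were described with the DNA just upstream of their starts, because 3 of the 4 hold a common word there. Of the 10 genes, 8 had an entry in the RefSeq promoter table (GRCm38.p6), with 12 starts in all. In the 150 bases before the start, the windows of Akap3, Akap4 and Fscb hold TGATGTCA, which differs by C4T, counted from 1 at the motif's 5′ end, from the cyclic AMP response element TGACGTCA. The word was searched on both strands (its reverse is TGACATCA). The window of the other Akap4 start, at chrX:7068060-7068209, does not hold it. The word is found in 3 of the 12 member windows and in 2.32% of 32851 such windows of all genes. It was chosen after the letters had been seen, and a match is a description of the sequence only. The windows follow, 5′ to 3′ on each gene's strand, with TGATGTCA in capitals, and the window of Smcp is shown for a member without it.
Akap3, chr6:126852948-126853097, plus strand: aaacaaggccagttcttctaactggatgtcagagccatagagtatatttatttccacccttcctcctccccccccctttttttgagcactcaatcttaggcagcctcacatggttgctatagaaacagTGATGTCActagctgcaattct
Akap4, chrX:7067365-7067514, plus strand: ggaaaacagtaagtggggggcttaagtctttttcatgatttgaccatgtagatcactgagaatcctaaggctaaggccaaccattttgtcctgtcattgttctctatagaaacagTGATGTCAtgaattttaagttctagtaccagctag
Fscb, chr12:64474899-64475048, minus strand: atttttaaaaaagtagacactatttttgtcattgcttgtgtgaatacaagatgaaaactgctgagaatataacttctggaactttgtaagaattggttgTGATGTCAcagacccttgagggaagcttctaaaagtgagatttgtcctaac
Smcp, chr3:92589074-92589223, minus strand: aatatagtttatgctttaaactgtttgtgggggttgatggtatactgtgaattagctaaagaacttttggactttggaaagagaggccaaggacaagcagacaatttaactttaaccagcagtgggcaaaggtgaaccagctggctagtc

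The first base of the word lies 22 bases before the RefSeq start of Akap3, 35 before the first RefSeq start of Akap4 and 51 before that of Fscb. In Akap3 and Akap4 it ends a longer stretch that both windows share letter for letter, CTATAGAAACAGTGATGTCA, of 20 bases, which the window of no other gene in the table holds. Over the 59 pairs of windows of different members, the next longest shared stretch had 11 bases and the median had 7. The unchanged element TGACGTCA was in 0 of the 12 member windows and in 1.36% of all windows. TATAAA (reverse TTTATA) was in 0 of the 12 member windows and in 7.57% of all windows.

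Akap4 encodes the most abundant protein of the fibrous sheath, an anchor for the regulatory subunits of protein kinase A. The gene is X-linked, at chrX:7067519-7078609 on the plus strand. It gave 2238, 2068 and 2529.6 CPM in 3NC, and 1862, 2061 and 2082 in 5NC. It gave 1978, 2181 and 2088 CPM in 8276KD, and 2180.0, 2228 and 2259 in 8276OV. All 3 libraries of 8276OV were above all of 5NC, but the means differed by less than libraries 2 and 3 of 3NC did. The log2 difference was 0.15 ± 0.09 (adjusted p = 0.465), and 8276KD differed from 3NC by -0.13 ± 0.09 (adjusted p = 0.613, both edgeR quasi-likelihood tests).

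Akap3 encodes the partner of AKAP4 that enters the sheath earlier in its assembly. It lies at chr6:126853098-126874308 on the plus strand, so the window printed above ends at the base before the annotated start. Levels in 3NC were 1109, 836.9 and 1079 CPM, and those in 5NC were 908.7, 786.7 and 819.8. Levels in 8276KD were 1002, 1083 and 1042 CPM, and those in 8276OV were 1101, 937.6 and 1217. The lowest library of 8276OV was above the highest of 5NC, and 3NC ran from within the range of 5NC to within that of 8276OV. The mean was 1085 ± 140.5 CPM in 8276OV against 838.4 ± 63.1 in 5NC, a log2 difference of 0.37 ± 0.12 (adjusted p = 0.159, edgeR quasi-likelihood test).

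Fscb encodes a calcium-binding protein of the sheath that associates with CABYR, and is a gene of 1 exon at chr12:64471330-64474690 on the minus strand. Its libraries held 385.0, 364.0 and 519.7 CPM in 3NC, and 306.3, 368.1 and 344.9 in 5NC. They held 356.6, 398.3 and 380.7 CPM in 8276KD, and 403.5, 415.8 and 425.8 in 8276OV. The 8276OV libraries lay close together above 5NC, while 3NC library 3 was the highest of all. The log2 difference of 8276OV from 5NC was 0.29 ± 0.12 (adjusted p = 0.285, edgeR quasi-likelihood test). The Fscb window printed above, at chr12:64474899-64475048, precedes a RefSeq start that lies upstream of the GENCODE start at 64474690.

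Fsip2 encodes a large protein that binds AKAP4, and its longest annotated transcript has 21116 bases in 23 exons, at chr2:82943634-83008937 on the plus strand. The 3NC libraries held 373.4, 412.4 and 553.5 CPM, and the 5NC libraries 329.2, 430.7 and 412.3. The 8276KD libraries held 405.9, 435.7 and 418.7 CPM, and the 8276OV libraries 367.5, 460.3 and 337.9. Here libraries 1 and 3 of 8276OV were low and library 2 was high, whereas for Odf1 library 2 was the low one. The means of 8276OV and 5NC were 388.6 ± 63.9 and 390.7 ± 54.1 CPM, a log2 difference of -0.01 ± 0.16 (adjusted p = 0.991, edgeR quasi-likelihood test).

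Smcp, the cysteine-rich protein of the mitochondrial capsule, is a known case of delayed translation in spermatids. It lies at chr3:92583867-92588997 on the minus strand. The window printed above precedes a RefSeq start that lies upstream of this GENCODE start. There were 1725, 1532 and 2221 CPM in 3NC, and 1518, 1437 and 1449.6 in 5NC. There were 1762, 1884 and 1829 CPM in 8276KD, and 1905, 1776 and 2014 in 8276OV. The 5NC libraries were below every library of the other 3 groups. Against 5NC the 8276OV mean of 1898 ± 119.3 CPM differed by 0.37 ± 0.12 on the log2 scale (adjusted p = 0.147), and 5NC differed from 3NC by -0.31 ± 0.12 (adjusted p = 0.306, both edgeR quasi-likelihood tests). These comparisons share the 5NC libraries.

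Oaz3 had the smallest p of the set. It lies at chr3:94432414-94443915 on the minus strand, overlaps Tdrkh and Mrpl9 on the opposite strand and had fractional counts in 12 of 12 libraries, so its level is uncertain. It stood at 1684, 1221 and 1703 CPM in 3NC, and 1345, 1146 and 1200.4 in 5NC. It stood at 1564, 1656 and 1674 CPM in 8276KD, and 1921, 1503 and 1885 in 8276OV. Every 8276OV library was above every 5NC library, with library 2 the lowest of its group. The means were 1770 ± 231.9 and 1230 ± 102.7 CPM, a log2 difference of 0.52 ± 0.13 (adjusted p = 0.0957, edgeR quasi-likelihood test).

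Set against each other, 8276OV and 5NC differed by a median log2 fold change of 0.33 over the 10 genes, against -0.01 over the 16395 genes tested. By edgeR's quasi-likelihood test with an adjusted p under 0.05, 0 of 10 passed, where 0.476% of all genes did. Above 0 were 8 of 10, where 48% of all genes were. At an unadjusted p under 0.05, 6 were higher in 8276OV and 0 lower, where 8.9% of all genes were higher. The groups did not overlap, with 8276OV higher, for 5 genes (Akap3, Akap4, Fscb, Smcp and Oaz3), against 11.7% of all genes. The count of calls differed between tools and with 1 library left out. DESeq2 called 5 of the 10, namely Oaz3 (adjusted p = 0.0075), Odf1 (0.014), Odf3 (0.030), Smcp (0.040) and Akap3 (0.0495), while limma-voom called 0. Over all tested genes DESeq2 called 742 and limma-voom 55, against 78 by edgeR. Without 8276OV library 2, edgeR called 217 genes in all. Among them were Odf1 (log2 0.84, adjusted p = 0.045), Oaz3 (0.63, adjusted p = 0.048) and Odf3 (0.84, adjusted p = 0.049). Without any other single library of the 2 groups edgeR called 0 of the 10.

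**Figure D2:**
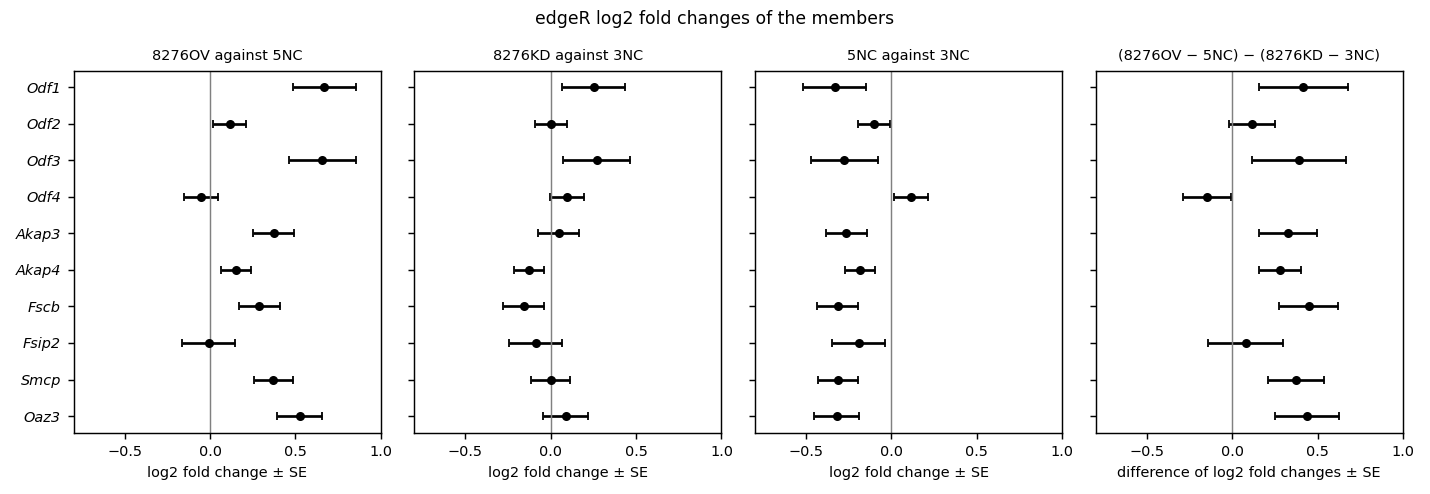
Log2 fold change of each gene with its standard error (x axis) in the 3 group comparisons, and the difference between the effects of the constructs in the last panel; the vertical line marks 0. In 8276OV against 5NC, Odf1 and Odf3 lie near 0.67 while Odf4 and Fsip2 lie at -0.05 and -0.01.

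The low totals were shared by 1 library of 8276OV and 2 of 5NC, so the comparison was also made within each set of totals. Among the 3 libraries with the lowest totals, 8276OV minus 5NC on the log2 scale was 0.42 for Odf1, 0.42 for Odf3, 0.36 for Oaz3, 0.30 for Smcp and 0.22 for Akap3 and Fscb. Among those with higher totals it was 0.56, 0.50, 0.50, 0.37, 0.35 and 0.44 in the same order. Both sets put 8276OV higher for these genes, with 1 library against 2 and no test within a set. Pooled over all libraries the differences were 0.67, 0.66, 0.52, 0.37, 0.37 and 0.29 in that order. With a term for the 3 lowest totals in the fit they were 0.49, 0.46, 0.43, 0.33, 0.29 and 0.33. Fsip2 gave 0.13 and 0.10 within the sets, although its pooled difference was -0.01, and Odf4 gave -0.14 and -0.06.

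Between 8276KD and 3NC the set had a median log2 difference of 0.02, with -0.03 over all genes tested. By edgeR's quasi-likelihood test 0 of 10 passed, against 0.0183% of all genes, and 0 had an unadjusted p under 0.05, against 8.69%. DESeq2 and limma-voom also called 0. Odf3 alone did not overlap, with 8276KD higher, as for 6.48% of all genes. The values of the remaining genes ran from -0.16 for Fscb to 0.25 for Odf1, with Smcp at -0.00058. The spread differed more than the means: over the 10 genes the coefficient of variation ran from 0.646% to 5.53% in 8276KD and from 10.3% to 21.2% in 3NC, and was larger in 3NC for all 10. That spread was not tested, and it came from different libraries: 3NC library 2 was the lowest of its group for 9 genes, and 3NC library 3 was the highest of all 12 for Akap4, Fscb, Fsip2 and Smcp. With all libraries 6 genes were above 0, where 45.3% of all genes were, and without 3NC library 2, in which the leukocyte markers were highest, 2 were. The part of leukocyte RNA in these values was not tested.

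Between the control groups the members had a median log2 difference of -0.27 for 5NC against 3NC, where all tested genes had -0.02. By edgeR 0 of 10 passed (0.244% of all genes did), and DESeq2 and limma-voom called 0. At an unadjusted p under 0.05 there were 4 lower in 5NC, where 7.87% of all genes were: Smcp, Fscb at -0.32 ± 0.12, Oaz3 at -0.32 ± 0.13 and Akap3 at -0.27 ± 0.12. Without 3NC library 3 Fscb was at -0.14 and Smcp at -0.15, and with a term for the 3 lowest totals Oaz3 was at -0.14 and Akap3 at -0.11. That term put Odf1 at -0.006 and Odf3 at 0.083, but Fscb at -0.39 and Fsip2 at -0.45. Smcp did not overlap, with 5NC lower, as for 6.17% of all genes. Without the term, Odf4 alone was above 0, where 46.6% of all genes were. This comparison shares 5NC with 8276OV against 5NC and 3NC with 8276KD against 3NC, so the values belong side by side: Oaz3 had 0.52 in the first construct comparison, 0.09 in the second and -0.32 between the controls, and Akap4 had 0.15, -0.13 and -0.19.

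Whether the constructs differed in effect was tested as (8276OV minus 5NC) minus (8276KD minus 3NC). The median over the 10 genes was 0.35 on the log2 scale, against 0.03 over all genes, and 9 of 10 were above 0, where 54.7% of all genes were. By edgeR's quasi-likelihood test 0 passed, against 0.0183% of all genes, and 4 had an unadjusted p under 0.05, all above 0, against 3.93%. Those 4 were Fscb at 0.45 ± 0.17 (adjusted p = 0.675), Oaz3 at 0.44 ± 0.19 (0.707), Smcp at 0.37 ± 0.16 (0.730) and Akap4 at 0.28 ± 0.12 (0.730). Without 3NC library 3 the difference was 0.27 for Fscb and 0.20 for Smcp. DESeq2 and limma-voom called 0 here.

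The genes did not vary as a single block. Over the 12 libraries, Odf1 and Odf3 followed each other with Pearson's r = 0.995 in log2 CPM (Spearman's rho = 0.972), and r was 0.990 without the 2 libraries farthest from the median. Oaz3 and Akap3 were joined at r = 0.972 (rho = 0.937), and Odf1 and Oaz3 at r = 0.962 (rho = 0.902). A separate pair was Akap4 and Fscb, with r = 0.959 (rho = 0.902) and 0.842 without the 2 farthest libraries. For these 4 pairs the permutation p, adjusted over 45 pairs, was 0.00015 for r and 0.00045 to 0.00135 for rho. The permutations shuffled all 12 libraries without regard to group, so each p also takes in differences between the groups. Odf1 was only weakly related to the second pair and to Fsip2: with Akap4 it had r = 0.287 (rho = 0.434, adjusted permutation p = 0.441 and 0.258), and with Fsip2 it had r = -0.307 (rho = -0.343, adjusted permutation p = 0.423 and 0.347). Akap3 and Oaz3 lay between, with r from 0.523 to 0.576 and rho from 0.664 to 0.713 with Akap4 and Fscb. Their adjusted permutation p with those genes was 0.097 to 0.142 for r and 0.027 to 0.044 for rho. Smcp was related to both sides, with r = 0.885 to Oaz3 (rho = 0.881, adjusted permutation p = 0.0010 and 0.0025) and r = 0.835 to Fscb (rho = 0.832, adjusted permutation p = 0.0019 and 0.0065). Akap4 with Fsip2 had r = 0.575 (rho = 0.301, adjusted permutation p = 0.104 and 0.408), which rests on the 2 farthest libraries, since it was -0.362 without them. Of the 45 pairs, 8 had r above 0.9, 8 were below 0 and 19 had an adjusted permutation p under 0.05. The shares among pairs of other genes were not computed, so these counts are a description. The sets of members above were named after their values had been seen.

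Taken within groups, as deviations from the group means, Odf1 and Odf3 had r = 0.993, and Akap4 and Fscb had 0.946. Odf1 and Akap4 had r = 0.033 on that measure. Odf4, which had r = 0.345 with the mean of the other 9 genes, had 0.969 with Odf2 and 0.927 with Akap3 in the deviations. Oaz3, Akap3 and Smcp were closest to the mean of the others, with r = 0.970, 0.958 and 0.936, and Fsip2 was farthest, with r = -0.066.

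**Figure D3:**
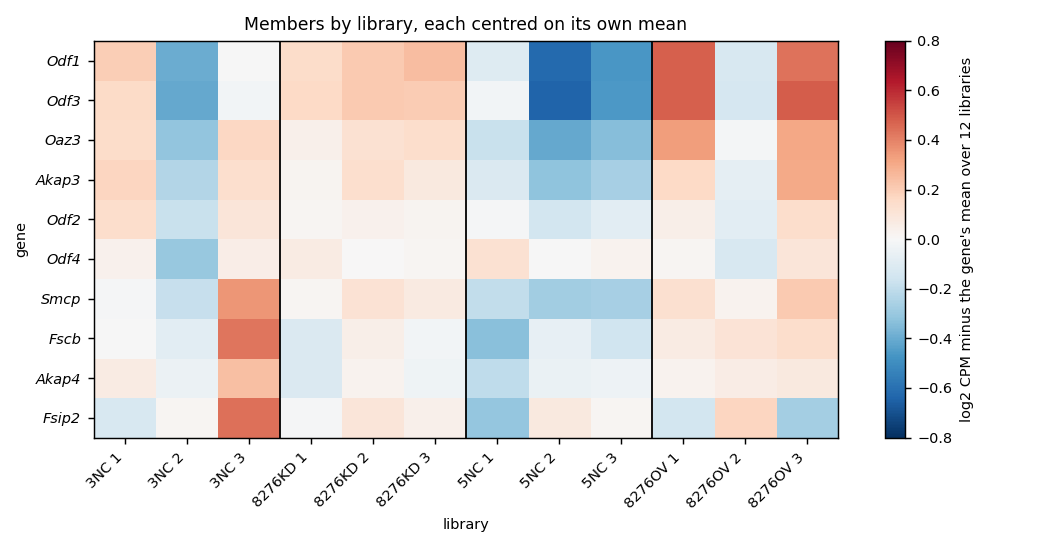
Each gene (rows) in each library (columns) as log2 CPM minus that gene's mean over the 12 libraries, from blue (below) to red (above); lines separate the groups. Odf1 and Odf3 share a pattern with high 8276OV libraries 1 and 3 and low 5NC libraries 2 and 3, whereas Fscb, Akap4 and Fsip2 are highest in 3NC library 3.

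The effective length shift of the libraries moved with 6 of the 10 genes at an adjusted permutation p under 0.05 for r. For rho, only Odf3 and Odf1 were under 0.05. These permutations also shuffled libraries without regard to group. The share of all tested genes that move with the shift was not computed. Odf3 followed the shift with r = 0.843 (rho = 0.832, permutation p adjusted over 10 genes 0.0063 and 0.014) and r = 0.804 without 3NC library 2 and 8276OV library 1. Odf1 had r = 0.806 (rho = 0.762, adjusted permutation p = 0.0075 and 0.027) and 0.739 without those libraries, and Oaz3 had 0.746 (rho = 0.629, adjusted permutation p = 0.016 and 0.107) and 0.607. Akap3 had r = 0.700 (rho = 0.587), Odf2 0.667 (0.566) and Odf4 0.661 (0.531), with adjusted permutation p of 0.028, 0.031 and 0.031 for r and 0.110, 0.110 and 0.113 for rho. Without those libraries r was 0.641, 0.562 and 0.532. Smcp had r = 0.522 (rho = 0.552, adjusted permutation p = 0.116 and 0.110). Akap4 had r = 0.019 (rho = 0.063), Fscb 0.119 (0.252) and Fsip2 -0.479 (-0.490), with adjusted permutation p for r of 0.955, 0.802 and 0.141. In deviations from the group means, r was 0.913 for Odf1, 0.927 for Odf3, 0.880 for Oaz3, 0.845 for Akap3, 0.827 for Odf2, 0.853 for Odf4 and 0.019 for Akap4. The libraries with the longest shift were 8276OV libraries 1 and 3, at 15.7 and 13.5 bases, while 8276OV library 2 was at 0.289 and the 5NC libraries were at 7.43, -3.03 and -4.89. With the shift as a term in the fit, chosen after seeing the data, the 8276OV difference from 5NC was 0.28 for Odf1 (adjusted p = 0.275), 0.25 for Odf3 (0.338), 0.27 for Oaz3 (0.222), 0.16 for Akap3 (0.477), 0.23 for Smcp (0.406), 0.27 for Fscb (0.449) and 0.15 for Akap4 (0.545, edgeR quasi-likelihood test). So Odf1, Odf3, Oaz3, Akap3 and Smcp had values smaller by over 1.5 times than without the term, and Fscb and Akap4 had nearly the same. What the shift reflects was not tested.

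**Figure D4:**
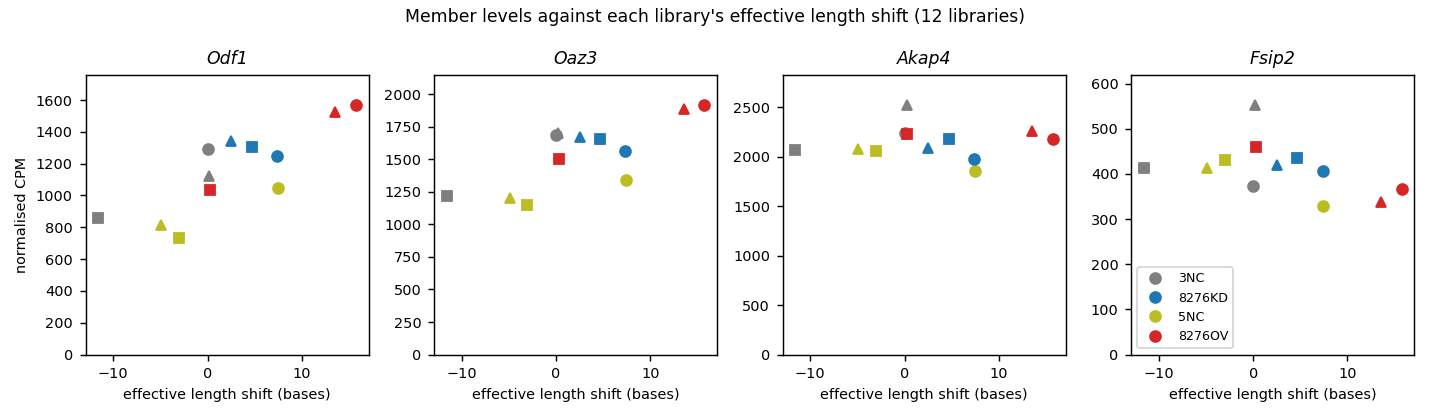
Level of Odf1, Oaz3, Akap4 and Fsip2 in normalised CPM (y axis, from 0) against each library's effective length shift in bases relative to 3NC library 1 (x axis); colours are groups and marker shapes are libraries 1, 2 and 3. Odf1 and Oaz3 are highest in the 2 libraries shifted by 13.5 and 15.7 bases, whereas Akap4 has r = 0.019 with the shift.

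Gene length itself differs between the sets. The genes with an effective length under 1 kb were Oaz3, Odf1, Odf3 and Smcp, and all 1873 tested genes of that class had a median log2 difference of 0.05 between 8276OV and 5NC. Fscb, Akap4, Akap3 and Odf2 lie in the class from 2 to 4 kb, whose 6335 genes had a median of -0.02. Fsip2 is over 8 kb, where 580 genes had a median of -0.05. Odf4 is in the class from 1 to 2 kb, whose 4099 genes had a median of 0.01. Its value of -0.05 was below that median, while each other member was above the median of its own class. The part of gene length in these values was not tested.

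Other genes of the sperm tail gave no call in 8276OV against 5NC, with medians also above 0. Of the other fibrous sheath genes, 10 of 10 were tested, 0 passed and 10 were above 0, with a median of 0.25. Cabyr, a calcium-binding protein of the sheath, had 0.59 ± 0.13 (adjusted p = 0.076), and Aldoart1, a sperm aldolase, had 0.30 ± 0.09 (0.150, edgeR quasi-likelihood test). Of the other outer dense fibre genes, 8 of 9 were tested (Odf3l2 had at most 1 count) and 0 passed, with 6 above 0, a median of 0.31 and a lowest value of -0.08. Tssk4, a kinase that acts on ODF2, had 0.54 ± 0.15 (adjusted p = 0.108), and Odf3l1, a relative of Odf3, had 0.62 ± 0.17 (0.122, same edgeR test). The 12 genes of the mitochondrial sheath and annulus had a median of 0.16 and 0 calls, with 9 above 0 and a lowest value of -0.21, and with Spata18 at 0.44 ± 0.10 (0.082) and the annulus septin Sept4 at 0.44 ± 0.12 (0.128, both adjusted p by edgeR). In 8276KD against 3NC these 3 lists had medians of 0.06, 0.14 and 0.03 and 0 calls.

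Spermatid genes outside the tail had list medians from 0.05 to 0.25. In 8276OV against 5NC, 7 genes of spermatid chromatin had a median of 0.22 and 0 calls, 5 of them above 0, with the protamine Prm2 at 0.26 ± 0.13 (adjusted p = 0.354) and Hils1 at 0.22 ± 0.14 (0.486, edgeR). The 8 acrosome genes had a median of 0.25 and 0 calls, with Acrv1 at 0.52 ± 0.13 (0.099) and Spaca3 at 0.55 ± 0.14 (0.100, adjusted p by edgeR). The acrosome genes went both ways, with 5 of 8 above 0, and at an unadjusted p under 0.05 there were 3 higher and 2 lower. The lower ones, named after their values were seen, were Zpbp2 at -0.40 ± 0.12 (adjusted p = 0.145) and Dpy19l2 at -0.30 ± 0.11 (0.225, edgeR). The 9 genes of the manchette and the head-tail junction had a median of 0.05 and 0 calls, 6 of them above 0, with Sun5 at 0.53 ± 0.14 (0.101) and Ift20 at -0.28 ± 0.10 (0.190, adjusted p by edgeR).

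The cell types that a testis also holds gave 2 calls in 8276OV against 5NC, where 0.476% of all genes were called. Their lists were chosen with earlier results of these data known, so the calls are a description. Of 10 meiotic genes 1 was lower, Spo11, which makes the DNA breaks of meiosis, by 0.91 ± 0.10 (adjusted p = 0.0033, edgeR). The meiotic list had a median of -0.16. Spo11 had a mean of 62.0 CPM in 5NC and 33.0 to 44.9 in the other groups. Of 10 Sertoli cell genes 1 rose, Cst9, by 2.22 ± 0.38 (adjusted p = 0.045, edgeR), with a list median of 0.09; its mean was 10.1 CPM in 5NC and 45.9 to 48.9 in the other groups. The 10 genes of spermatogonia had a median of 0.01 and 0 calls, with 6 above 0 and a lowest value of -0.20. Rhox13 was at 0.61 ± 0.21, with means of only 3.32 CPM in 8276OV and 2.17 in 5NC, and Kit was at 0.23 ± 0.13. The 8 genes of Leydig cells had a median of 0.23 and 0 calls, with 7 above 0 and a lowest value of -0.11. Hsd3b1 was at 0.17 ± 0.08 and Hsd17b3 at 0.63 ± 0.36. Leukocyte genes, 9 of 10 tested, had a median of 0.06 and 0 calls, with 6 above 0. Cd52 was at -2.21 ± 1.59, with means of 4.82 ± 4.41 CPM in 8276OV and 22.1 ± 20.9 in 5NC, and Adgre1 was at 0.33 ± 0.47. The summed level of the leukocyte list was 58.7 to 73.1 CPM in 8276OV and 57.5 to 96.1 in 5NC. Epididymis genes, 6 of 9 tested, had a median of -1.39 and 0 calls, with summed levels of 79.1 to 131.1 CPM in 8276OV and 114.8 to 370.2 in 5NC. Aqp9 was at -0.40 ± 0.09. Defb1 was at -2.38 ± 1.22 but near the floor, with means of 0.09 CPM in 8276OV and 0.52 in 5NC. It was at 0 in 2 libraries, Lcn8 in 11 and Lcn5 in 8. The part of these cells in the values of the tail genes was not tested.

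**Figure D5:**
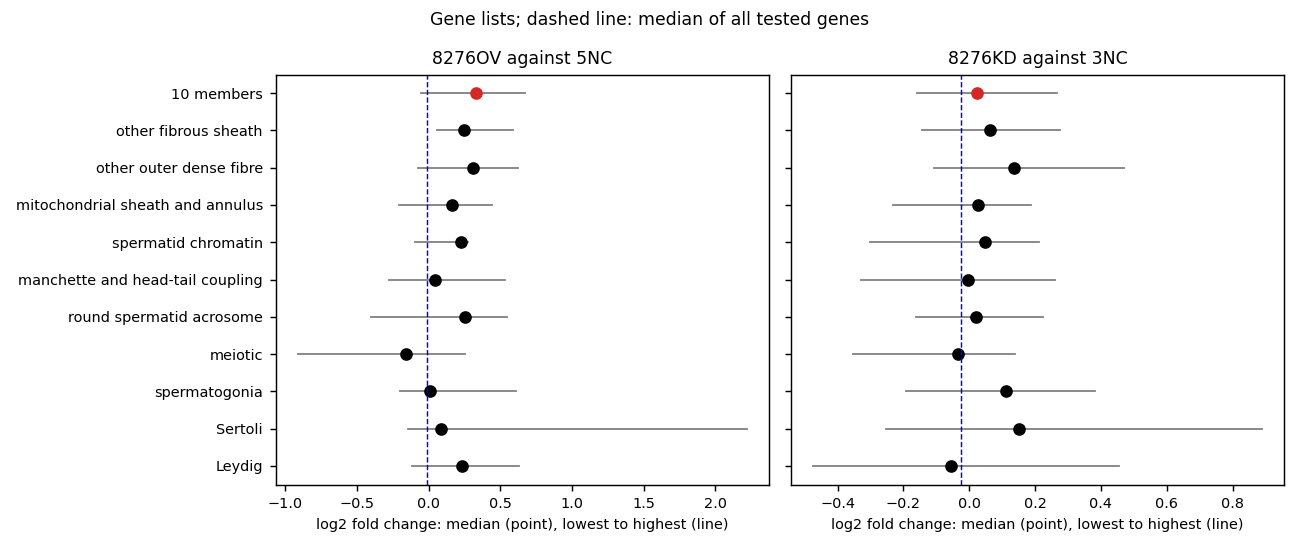
Log2 fold change of the genes of each list (x axis) in 8276OV against 5NC and in 8276KD against 3NC: the point is the median, the grey line runs from the lowest to the highest gene, and the dashed line is the median of all tested genes. In 8276OV against 5NC the 10 genes have a median of 0.33 and the other fibrous sheath and outer dense fibre genes 0.25 and 0.31; in 8276KD against 3NC they have 0.02, 0.06 and 0.14.

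The transcripts whose profile was most like the mean of the 10 genes were Nt5c1b (r = 0.988), Kif2b (r = 0.987), 1700012A03Rik (r = 0.987), Gtsf1l (r = 0.986) and Tbata (r = 0.986). They were the highest of 9850 genes with a mean of at least 10 CPM, over 12 libraries, and the values are a description. Their mean levels ran from 156.3 CPM for 1700012A03Rik to 636.6 for Kif2b.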

How the data were processed

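RNA from F1 mouse testes was measured in 12 libraries. The authors deposited 1 estimated count per gene and library (from the file headers; 88.2% of values are whole). The deposited table also holds values headed only as expression, which the counts and totals show to be FPKM by the authors. Reads were placed on mm10, per the submitters' processing notes. No source used here gives the aligner, counter, annotation, strand setting or filters. Another 18 per-sample columns, of 9 other samples, were not used. Counts were rounded, filtered with filterByExpr (minimum count 10; 16395 of 20788 genes tested, all 10 members among them, and 0.0708% of counts left out), scaled by TMM and fitted with edgeR 4.0.16 in R 4.3.3 (quasi-likelihood, robust), as group means over all 12 libraries, with Benjamini-Hochberg adjustment over all tested genes at 0.05. The test was checked on simulated counts. Alternatives used DESeq2 1.42.0, limma 3.58.1 (voom), total counts, no filter, a replicate block, terms for low totals and for the effective length shift, only the libraries compared, and each library left out. Libraries of 1 group differed beyond counting noise in all pairs (chi-square over its degrees of freedom 3.13 to 41.0), so none was taken as a copy. Correlations used log2 of CPM plus 0.5, and their p-values 100000 permutations in scipy 1.17.1. The effective length shift is a median over 1593 genes with a mean of at least 2000 counts. Positions came from GENCODE M21 and upstream windows from RefSeq.

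Members and lists (other fibrous sheath, other outer dense fibre, mitochondrial sheath and annulus, spermatid chromatin, manchette and head-tail coupling, round spermatid acrosome, meiotic, spermatogonia, Sertoli, Leydig, leukocyte, epididymis) were chosen with earlier results of these data known. Named were all members, any gene of a list called in a comparison or else the 2 with the smallest p in 8276OV against 5NC, and the 5 genes most like the members' mean profile. Counting error is small at this depth, and the number of libraries limits the precision.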

Additional observations from a re-analysis of the deposited data

How the results depend on the processing

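In every alternative run, the members Odf1, Odf3, Akap3, Akap4, Fscb, Smcp and Oaz3 stayed above 0 in 8276OV against 5NC, and no member passed in the other 3 comparisons. In 8276OV against 5NC, members called were 5 with DESeq2, 3 with the replicate block (Odf1 at 0.037, Odf3 at 0.047 and Oaz3 at 0.042, adjusted p) and 0 to 3 over single libraries left out. Genes called in that comparison, 78 by edgeR, were 742 with DESeq2, 163 with total counts, 269 with the replicate block, 3 without the 3 lowest totals and 5 to 217 over single libraries left out (5 without 5NC 3 or 8276OV 1, 8 without 8276OV 3, 13 without 5NC 2, 14 without 5NC 1, 217 without 8276OV 2). The 72 genes called with the length-shift term were 12 higher and 60 lower, against 42 and 36. In 8276KD against 3NC, 3 genes became 23 with DESeq2, 0 with only the 6 libraries compared and 1 to 9 with a library left out. In 5NC against 3NC, 40 genes (15 higher, 25 lower) became 305 with DESeq2, 68 with total counts (34 and 34), 6 with the low-total term, 9 with only 6 libraries and 7 to 126 with a library left out (126 without 3NC 2). For the difference of effects, 3 became 53 with DESeq2, 6 with the replicate block and 3 to 12 with a library left out. The causes were not tested. The labels do not say that equal numbers pair the libraries, and the values left it unsettled. Same-numbered libraries 1, 2 and 3 correlated at 0.301, 0.375 and -0.152 in 8276OV against 5NC. The values were 0.047, -0.048 and -0.110 in 8276KD against 3NC, and 0.383, 0.212 and 0.032 in 5NC against 3NC. The block therefore rests on a number alone. Members above 0 became 2 with the low-total term in 5NC against 3NC, and in 8276KD against 3NC 1 with the length-shift term and 2 to 9 with a library left out. The order by level kept 6 ranks per kilobase of annotated exons.

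Members near 0 changed sign in 35 values, none with an adjusted p under 0.05. In 8276KD against 3NC, Smcp was 0.014 with total counts, 0.00053 with no filter, 0.017 with limma-voom, 0.011 with the replicate block and 0.00061 with only 6 libraries, and Odf2 was -0.0014 with DESeq2. With the length-shift term there, Odf1 was -0.051, Odf2 -0.114, Odf3 -0.063, Odf4 -0.040, Akap3 -0.122, Oaz3 -0.109 and Fsip2 0.037. With single libraries left out the ranges were -0.091 to 0.064 for Odf2, -0.015 to 0.155 for Odf4, -0.071 to 0.123 for Akap3, -0.055 to 0.168 for Oaz3, -0.258 to 0.017 for Fscb, -0.199 to 0.098 for Fsip2 and -0.113 to 0.165 for Smcp. In 8276OV against 5NC, Fsip2 was 0.113 with the low-total term, 0.101 without the 3 lowest totals, 0.142 with the length-shift term and -0.148 to 0.080 with a library left out. There Odf2 was -0.027 with the length-shift term and Odf4 -0.109 to 0.0064 with a library left out. In 5NC against 3NC, Odf3 was 0.083 with the low-total term. For the difference of effects, Fsip2 was -0.108 to 0.189 with a library left out.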
